A study of Caenorhabditis elegans with 45 samples.

Results

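The *ugt* genes of *C. elegans* encode UDP-glycosyltransferases. All genes of the deposited expression table whose WormBase symbol starts with *ugt-* were taken, 66 of 18589 genes in the table. The current annotation names 67 such genes, and the remaining one, *ugt-35*, had 0 estimated reads in every library. All 66 are annotated as protein coding. UDP-glycosyltransferases sit in the membrane of the endoplasmic reticulum and move a sugar from a UDP-sugar donor onto small lipophilic molecules, which makes these more water soluble. They belong to phase II of detoxification, next to the glutathione S-transferases and after the phase I cytochrome P450 enzymes, and efflux transporters carry the products out of the cell. In mammals the family acts on bilirubin, steroids and drugs. For single worm members no substrate is given here.

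RNA was sequenced from whole day-1 adult hermaphrodites of 5 isogenic strains, each under 3 conditions with 3 libraries per group, 45 libraries in all. The strains were 4 wild isolates, JU1088 (strong germline RNAi response), EG4348 (moderate), CB4856 and QX1211 (both with little response), and the laboratory strain N2, which is RNAi competent. Worms ate HT115 *Escherichia coli* carrying a *par-1* RNAi vector (PAR1), a *pos-1* RNAi vector (POS1) or the empty pL4440 vector (CTR), from the L1 larval stage to adulthood, so every group including CTR was raised on vector-bearing bacteria. Both targets act in the germline and early embryo. QX1211 had been kept at a lower temperature than the other strains before the experiment, so strain and earlier temperature cannot be told apart for QX1211. Earlier plates of the 4 wild strains, unlike those of N2, were made with agarose against burrowing. Strain and earlier plate type therefore cannot be told apart in comparisons with N2. Libraries held 4268881 to 17864647 estimated reads (median 7478529). Replicates were separate plates of one experiment, and p-values measure the spread between them.

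*pos-1* itself fell under POS1 in JU1088 (log2 fold change -3.59), N2 (-2.57) and EG4348 (-1.23), with values of -0.05 in CB4856 and -0.13 in QX1211 that did not pass the test, whereas *par-1* transcripts did not pass the threshold under PAR1 in any strain. Germline and intestine markers were detected in every group, with no listed gene at 0. In whole worms, fewer cells of a type and less RNA per cell cannot be told apart. Measured by the spread of log2 differences from the other libraries of the group over 8150 genes outside the family, 4 libraries in 3 groups lay farthest out: JU1088 POS1 replicate 2 (SD 0.575), N2 CTR replicate 1 (0.537), JU1088 POS1 replicate 1 (0.533) and CB4856 POS1 replicate 2 (0.442), against a median of 0.31. Results that rest on these groups are given with and without the farthest library of each, and for JU1088 POS1 also without replicate 1.

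The members are spread unevenly over the genome (WBcel235): 41 lie on chromosome V, 12 on IV, 5 on I, 4 on X, 3 on III and 1 on II. Of the 66, 35 lie within 10 kb of another member, in 10 runs. The longest run holds 8 genes (*ugt-12*, *ugt-11*, *ugt-9*, *ugt-10*, *ugt-67*, *ugt-8*, *ugt-14* and *ugt-13*; V:4887165-4911399), and the next holds 6 (*ugt-40*, *ugt-37*, *ugt-38*, *ugt-39*, *ugt-41* and *ugt-36*; V:7139475-7169281). In 16 members the summed read estimate was not a whole number (tolerance 0.01 reads) in at least 1 library, and in 7 (*ugt-19*, *ugt-20*, *ugt-22*, *ugt-38*, *ugt-49*, *ugt-54* and *ugt-67*) in most libraries with reads. Such estimates arise where a read fits transcripts of more than 1 gene and is divided among them, so levels of these members are uncertain. Which genes shared the reads was not examined.

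The family was expressed over a wide range in control worms. Over the 15 CTR libraries the member means summed to 896.5 TPM (a length-corrected level, scaled to the same total in every library), and the 5 highest members made up 42.4% of this sum. These were *ugt-47* (mean 100.6 TPM), *ugt-62* (78.6), *ugt-22* (77.4), *ugt-12* (70.7) and *ugt-63* (53.0). The median member stood at 5.15 TPM. In all, 24 members had a mean of 10 TPM or more, 25 lay between 1 and 10 TPM, and 17 were under 1 TPM. *ugt-43*, called higher under PAR1 in all 5 strains below, was among the lowest, at 0.579 TPM.

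**Figure D1:**
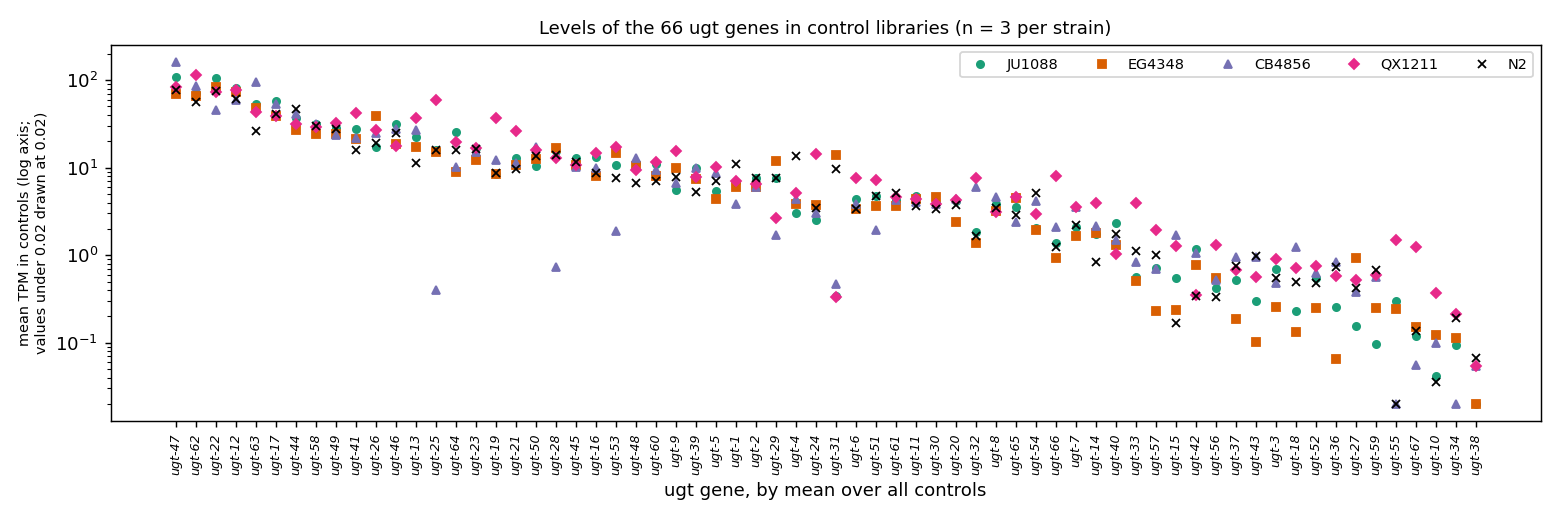
Mean level of each of the 66 *ugt* genes over the 15 CTR libraries, in TPM on a log axis, ordered from high to low, with a point for each strain's mean of 3 libraries and values under 0.02 TPM drawn at 0.02. The 5 genes at the top, led by *ugt-47* at 100.6 TPM, hold 42.4% of the family's summed level, and 17 genes lie under 1 TPM.

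The order at the top differed among strains. In CTR worms *ugt-47* averaged 162.3 ± 20.5 TPM in CB4856, 108.9 ± 5.6 TPM in JU1088, 83.97 ± 3.7 TPM in QX1211, 70.3 ± 2.8 TPM in EG4348 and 77.7 ± 30.4 TPM in N2 (SD, n = 3 each). The N2 spread came mainly from replicate 1, in which several members were low. *ugt-22* averaged 106.4 TPM in JU1088, its highest strain mean, and 46.1 TPM in CB4856, its lowest. Summed over all members, the level in CTR worms was 1052 ± 75.9 TPM in QX1211, 941 ± 50.2 TPM in JU1088, 914 ± 50.5 TPM in CB4856, 799.6 ± 31.0 TPM in EG4348 and 776 ± 121 TPM in N2.

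Differences among strains in CTR worms were tested first, since they bear on which members vary with genotype without RNAi. Strain differences passed an adjusted p of 0.1 for 38 of 64 members tested, 59.4%, against 35.1% of all 16490 genes tested (quasi-likelihood F test of edgeR on 4 strain coefficients at once, p-values adjusted by Benjamini-Hochberg). Among the 38, the highest mean was in QX1211 for 21 members, in CB4856 for 6, in JU1088 and EG4348 for 4 each, and in N2 for 3. The lowest mean was in EG4348 for 13, CB4856 for 10, N2 for 7, JU1088 for 6 and QX1211 for 2. These tallies were not recounted without N2 CTR replicate 1, when 45 members passed. Of 34 members in runs 19 were called, as were 19 of the 30 others, so position in a run did not set the called members apart by count.

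Set against N2, QX1211 had the most higher members. There, 17 members were higher and 3 lower in QX1211, against 9.59% and 11.5% of all genes tested. The median log2 fold change was 0.46 for the family and -0.00 for all genes. It was smaller, 0.27 for 47 members and -0.03 for 10488 genes, among those with a logCPM of 1 or more. LogCPM is edgeR's log2 read abundance, scaled for library size. In CB4856, 8 were higher and 10 lower (4.79% and 5.06% of all genes). In EG4348, 1 was higher and 8 were lower (4.33% and 9.06%), and leaving out EG4348 CTR replicate 1 or 2 left 5 or 3 calls. Without N2 CTR replicate 2, 4 were higher and 3 lower, and 4 of these calls were shared with the full fit. Without N2 CTR replicate 1 the numbers were 2 and 7, and without replicate 3 they were 3 and 9. In JU1088, 4 were higher and 2 lower (1.8% and 2.89%), or 3 in all without JU1088 CTR replicate 3. All 4 comparisons share the N2 libraries. The paper names genes missing from a strain's genome and reads too diverged to map as possible sources of low counts in wild strains. DNA coverage of the *ugt* genes was not examined here, so such cases cannot be told apart from lower expression.

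The smallest p for strain belonged to *ugt-28* (I:4727280-4730366, plus strand). In CTR worms its normalized counts were 6.96, 4.68 and 6.96 in CB4856, against 123, 126 and 108 in N2. The CB4856 libraries lay far below the N2 libraries, with no overlap, and below those of all other strains. The log2 fold change was -4.29 ± 0.21 (SE; edgeR, adjusted p = 2.3e-09). Its neighbour in the same run, *ugt-25* (I:4731606-4735276, plus strand), had 2.1, 3.53 and 1.94 in CB4856, against 92.8, 113.7 and 107 in N2. It was called lower in CB4856 (log2 -5.21 ± 0.47, adjusted p = 1.7e-06). In QX1211 the same gene had 572, 202 and 353 normalized counts and was higher than in N2 (log2 1.85 ± 0.28, adjusted p = 2.3e-04). QX1211 and CB4856 thus lay on opposite sides of N2 for *ugt-25*, without overlap.

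The low levels in CB4856 did not extend over the whole run. *ugt-26*, which opens the run, had 230, 159 and 183 normalized counts in CB4856, against 106, 189 and 150 in N2. The ranges overlapped and the test was not passed (log2 0.35 ± 0.25). *ugt-27*, between *ugt-26* and *ugt-28*, had 0.941, 1.2 and 6.39 in CB4856, against 1.98, 2.59 and 4.88 in N2, levels too low to read a direction.

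*ugt-31* (I:2333338-2338693, plus strand) separated the strains into a high and a low set. Its counts in CTR worms were 3.88, 4.37 and 2.16 in JU1088, 7.61, 3.02 and 3.94 in CB4856 and 3.39, 3.57 and 3.08 in QX1211. In EG4348 they were 139, 135 and 155, and in N2 164, 81.3 and 47.2. JU1088, CB4856 and QX1211 were each called lower than N2, by log2 values of -4.82, -4.35 and -4.81 (adjusted p = 2.1e-05, 4.5e-06 and 4.6e-06), while EG4348 overlapped N2 (log2 0.57 ± 0.31).

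Further strain differences followed other patterns. *ugt-29* (V:696524-699589, minus strand) had 9.47, 24.5 and 18.4 in CB4856 and 32.3, 22.3 and 27.9 in QX1211, against 74.8, 99.1 and 69.1 in N2. Both strains lay below every N2 library (log2 -2.19 and -1.52). *ugt-64* had 431, 411 and 423 in JU1088, 144, 148 and 164 in EG4348 and 192, 142.1 and 172 in CB4856, against 219.6, 298 and 292 in N2. It was higher in JU1088 (log2 0.64) and lower in EG4348 (-0.82) and CB4856 (-0.69), with no overlap in any of these pairs. *ugt-4* was the one member called lower than N2 in all 4 wild strains, at log2 -2.21, -1.78, -1.59 and -1.30 in JU1088, EG4348, CB4856 and QX1211. The N2 libraries for *ugt-4* held 145, 48.1 and 94.99 normalized counts, and without N2 CTR replicate 1 the calls in CB4856 and QX1211 were lost (adjusted p = 0.147 and 0.22), as they were without CB4856 CTR replicate 3 (0.155) and without N2 CTR replicate 3 or QX1211 CTR replicate 2 or 3 (0.102, 0.148 and 0.167 in QX1211). Leaving out the third CTR library of JU1088 (adjusted p = 0.131) or the second of EG4348 (0.114) ended the call in that strain as well.

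**Figure D2:**
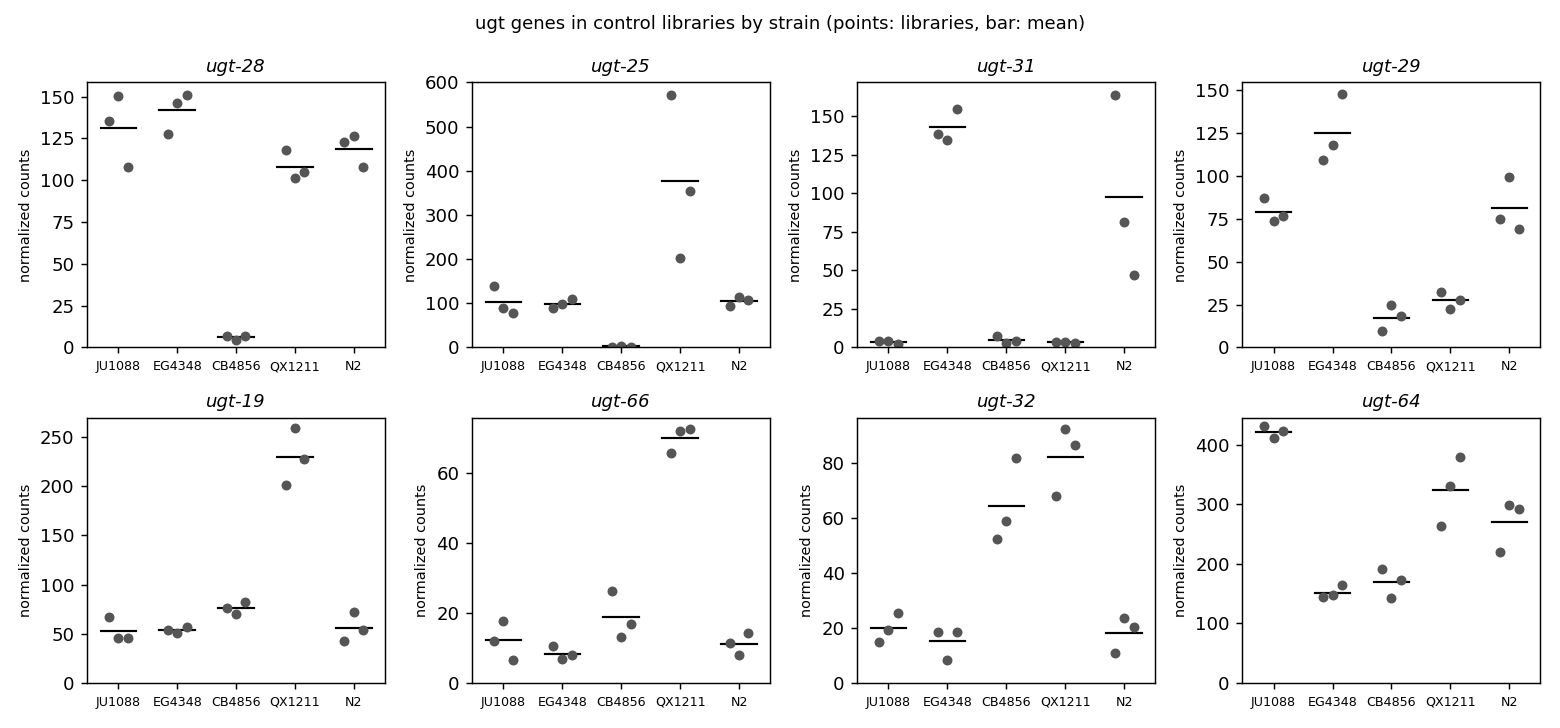
Normalized counts of 8 *ugt* genes in the CTR libraries of each strain, 1 panel per gene, with a point per library and a bar at the mean (linear axes from 0). CB4856 lies between 4.68 and 6.96 for *ugt-28*, far below the other strains, QX1211 stands alone at the top for *ugt-19* and *ugt-66*, and JU1088, CB4856 and QX1211 lie close to 0 for *ugt-31*.

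The members raised in QX1211 came from several chromosomes. *ugt-19* had 201, 259 and 228 in QX1211, against 43.0, 72.1 and 53.3 in N2 (log2 2.00 ± 0.19, adjusted p = 1.2e-06). It had read estimates that were not whole in all 45 libraries, as had *ugt-20*, which did not pass the test (log2 0.20 ± 0.32). *ugt-21* had 178, 228 and 199.9 in QX1211, against 68.4, 77.7 and 79.2 in N2 (log2 1.41 ± 0.14, adjusted p = 4.2e-06). For both genes every QX1211 library exceeded every CTR library of the other 4 strains. *ugt-66* had 65.8, 72.0 and 72.7 in QX1211, against 11.3, 7.97 and 14.3 in N2 (log2 2.63 ± 0.33). *ugt-24* had 152, 87.7 and 84.8 in QX1211, against 22.7, 40.3 and 18.4 in N2 (log2 2.02 ± 0.30). QX1211 again stood above all N2 libraries. *ugt-32* was high in QX1211 (67.9, 92.2 and 86.7) and in CB4856 (52.5, 58.8 and 81.7), against 10.7, 23.5 and 20.2 in N2, with log2 values of 2.14 and 1.80. At the low end, *ugt-55* had 16 estimated reads over the QX1211 libraries and 0 over those of N2, in 2 of 3 QX1211 libraries, and its call (adjusted p = 0.058) was not made by DESeq2 (adjusted p = 0.542) or without QX1211 CTR replicate 1 or 2 (0.119 and 0.159) or N2 CTR replicate 2 (0.118).

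The response to PAR1 was compared with CTR within each strain, where a call needed both a fold change over 1.5 and an adjusted p below 0.1. Under PAR1 in JU1088, 9 members were higher and 6 lower, against 7.86% and 0.64% of all 18581 genes tested. In EG4348, 6 were higher and 2 lower (2.13% and 0.253% of all genes). CB4856 had 6 higher and 6 lower (3.93% and 0.468%). QX1211 had 3 higher and 10 lower (4.54% and 0.608%), with a median log2 fold change of -0.24 over the members and 0 over all genes. At a logCPM of 1 or more, this median was -0.16 over 49 members and -0.03 over 10694 genes. N2 had 2 higher and 2 lower (0.856% and 0.301%). Lower calls were thus 3.03% to 15.2% of the members in the 5 strains, against 0.253% to 0.64% of all genes. By sign alone, 12 members were higher and 17 lower in all 5 strains. The same count was not made over all genes, so these have no background to be read against.

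Single libraries moved several of these counts by more than 1.5 times. The 15 calls in JU1088 became 6 without PAR1 replicate 2. The 8 in EG4348 became 2 without CTR replicate 1, 3 without PAR1 replicate 1 or CTR replicate 2, and 5 without PAR1 replicate 3. The 12 in CB4856 became 4, 6, 5 and 6 without CTR replicate 1, PAR1 replicate 1, PAR1 replicate 2 and CTR replicate 3. The 4 in N2 became 7 without CTR replicate 1 and 2 without PAR1 replicate 3, and 10 (2 higher and 8 lower) without the farthest library of each of the 3 groups named above.

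*ugt-43* (WBGene00008485, IV:10464588-10467297, plus strand) rose under PAR1 in all 5 strains. In JU1088 it had 30.01, 19.2 and 13.3 normalized counts under PAR1, against 4.3, 1.52 and 1.15 in CTR worms (log2 3.30 ± 0.62, adjusted p = 5.2e-04). In EG4348 it had 12.2, 10.4 and 16.8 under PAR1, against 0.752, 0 and 1.65 in CTR worms. These rest on 46 and 2 estimated reads, a ratio of 21.4 with a 95% counting interval of 5.604 to 182 that covers counting error only (edgeR, adjusted p = 5.1e-04). In every strain all 3 PAR1 libraries lay above all 3 CTR libraries.

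The other strains started from higher CTR levels of *ugt-43*. CB4856 had 38.6, 25.8 and 43.4 under PAR1, against 7.07, 5.81 and 9.6 in CTR worms (log2 2.28 ± 0.42). QX1211 had 23.2, 23.5 and 17.1 under PAR1, against 5.02, 5.00 and 3.13 (log2 2.18 ± 0.50). N2 had 33.8, 41.2 and 46.0 under PAR1, against 12.4, 5.76 and 4.68 (log2 2.40 ± 0.43), a call lost when N2 was fitted alone (adjusted p = 0.144, with 0 members called). Under PAR1, EG4348 had the lowest and N2 the highest mean, and the libraries of N2 and CB4856 overlapped. Under POS1 *ugt-43* was called in JU1088 alone, at 7.86, 15.3 and 8.85 (log2 2.40 ± 0.64, adjusted p = 0.019). That call was lost without POS1 replicate 2 (adjusted p = 0.2) or CTR replicate 3 (0.137). The interaction of strain and treatment did not pass the test for *ugt-43* (adjusted p = 0.37), so the responses are not shown to differ between strains.

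*ugt-44* (WBGene00008486, IV:10469741-10471899, plus strand) is the neighbour of *ugt-43* in a run of 2 genes and was expressed far more, at a mean of 36.6 TPM in CTR worms. Under PAR1 it had 762, 615 and 607 normalized counts in JU1088, against 353, 237 and 240.0 in CTR worms (log2 1.28 ± 0.29). The log2 values were 1.317 in EG4348, 1.37 in CB4856, 1.21 in QX1211 and 1.11 in N2 (adjusted p = 0.0063, 0.0024, 0.0075 and 0.028). In all 5 strains the PAR1 libraries lay above the CTR libraries. In N2 the call was lost without CTR replicate 3 or PAR1 replicate 3 (adjusted p = 0.207 and 0.386). Under POS1 in JU1088 *ugt-44* moved the other way, with 157, 179.7 and 118 normalized counts (log2 -0.82 ± 0.30, adjusted p = 0.088), a call lost without any of 5 of the 6 libraries compared. PAR1 and POS1 of a strain share its CTR libraries.

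**Figure D3:**
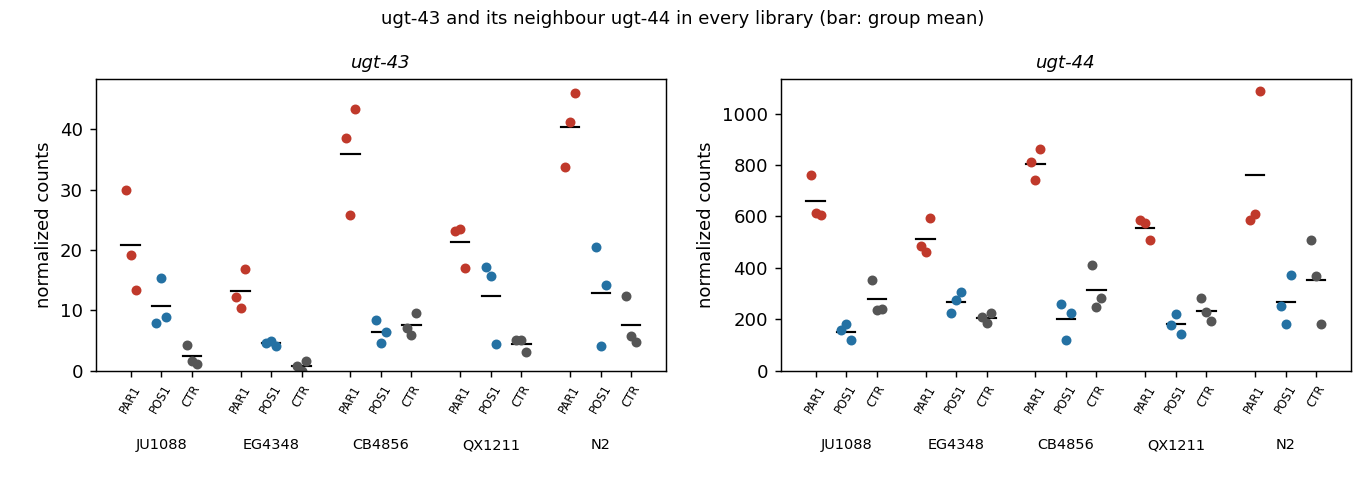
Normalized counts of *ugt-43* and *ugt-44* in each of the 45 libraries by strain and condition (PAR1, POS1, CTR), on linear axes from 0, with a point per library and bars at group means. PAR1 libraries of both genes lie above CTR libraries in all 5 strains, and POS1 libraries of *ugt-44* in JU1088 lie below CTR.

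*ugt-57* (X:6991727-6994162, plus strand) was the one other member called higher in 3 strains. In QX1211 it had 91.1, 81.1 and 82.6 under PAR1, against 18.5, 22.3 and 15.1 in CTR worms (log2 2.15 ± 0.63, adjusted p = 0.033), and this call was lost without CTR replicate 1 (adjusted p = 0.142). In JU1088 it had 35.5, 127 and 27.8, against 7.66, 4.59 and 8.63 (log2 3.17 ± 0.74), lost as a call without PAR1 replicate 2 (adjusted p = 0.143). CB4856 had 47.1, 34.2 and 16.5, against 1.78, 13.8 and 4.26 (log2 2.13 ± 0.68, adjusted p = 0.071), lost without any of 4 libraries (adjusted p up to 0.287). All PAR1 libraries lay above the CTR libraries in these strains, while in N2 the groups overlapped (12.2, 5.69 and 13.1 under PAR1, against 19.3, 5.81 and 4.08).

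Other higher calls under PAR1 were made in fewer strains. *ugt-50* rose in JU1088, with 148, 261 and 138 under PAR1, against 97.2, 107 and 90.9 in CTR worms (log2 0.88 ± 0.21). Its groups stood apart, the gene overlaps the miRNA gene *mir-62*, and the call was lost without PAR1 replicate 2 (log2 0.54, adjusted p = 0.15). *ugt-62* rose in EG4348, with 1174, 1050.0 and 666 under PAR1, against 557, 496 and 553 (log2 0.85 ± 0.23), without overlap, and leaving out any of 4 libraries ended the call (adjusted p = 0.106 to 0.192). *ugt-19* was called in EG4348 (log2 0.81 ± 0.21) and CB4856 (0.64 ± 0.20), calls lost without any of 3 and 5 libraries (adjusted p up to 0.233 and 0.212). In *ugt-18*, chosen here after its values were seen, the fitted log2 fold change of 4.51 in JU1088 came from 12.1, 124 and 0 under PAR1, against 2.02, 1.5 and 2.25 in CTR worms. These groups overlapped, 1 library carried the difference, and the call was lost without any of 4 libraries (adjusted p up to 0.718).

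Among the members that fell, *ugt-12* (V:4887165-4889629, minus strand), one of the 5 most expressed, was called lower under PAR1 in 4 strains. In JU1088 it had 497, 418 and 432 under PAR1, against 824, 699 and 707 in CTR worms (log2 -0.72 ± 0.15, adjusted p = 0.0013). In N2 it had 349.8, 354 and 224, against 389, 625 and 696 (log2 -0.89 ± 0.15, adjusted p = 4.0e-04). EG4348 and QX1211 gave -0.62 ± 0.14 and -0.69 ± 0.15, and CB4856 gave -0.37 ± 0.15, which did not pass the test. PAR1 and CTR libraries did not overlap in any strain. Without EG4348 CTR replicate 1 the change in EG4348 fell under the fold minimum (log2 -0.58, adjusted p = 0.0876).

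*ugt-21* was called lower in 7 of the 10 RNAi comparisons, more than any other member, and its log2 fold change was negative in all 10. In CB4856 it had 44.7, 41.3 and 56.6 under PAR1 and 53.1, 39.8 and 48.0 under POS1, against 96.6, 77.7 and 89.5 in CTR worms (log2 -0.87 ± 0.20 and -0.88 ± 0.20). In QX1211 it had 106, 102 and 132 under PAR1 and 127, 89.6 and 114.1 under POS1, against 178, 228 and 199.9 in CTR worms (log2 -0.85 ± 0.19 and -0.87 ± 0.19). Treated and CTR libraries did not overlap in either strain. N2 and EG4348 were called under PAR1 (log2 -0.79 and -0.73) and JU1088 under POS1 (-0.84). The calls under POS1 in CB4856 and QX1211 (adjusted p = 0.059 and 0.066) were lost when any of 4 and 6 single libraries was left out, with adjusted p up to 0.638 in CB4856 and 0.659 in QX1211. Under PAR1 the calls in EG4348 and N2 were lost without any of 4 and 3 libraries (adjusted p up to 0.27 and 0.408).

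The neighbours *ugt-47* and *ugt-17* (V:10096305-10104964) were both called lower under PAR1 in JU1088, CB4856 and QX1211. *ugt-47* had 598, 560.4 and 607 under PAR1 in CB4856, against 1073, 909 and 1202 in CTR worms (log2 -0.85 ± 0.21). *ugt-17* had 97.3, 108 and 115 under PAR1 in QX1211, against 179.7, 234 and 199.6 (log2 -0.95 ± 0.23). In both cases the groups were apart. *ugt-17* in JU1088 and CB4856 passed narrowly (adjusted p = 0.069 and 0.096), and each of these calls was lost without any of 5 of the 6 libraries compared (up to 0.209 and 0.285). The *ugt-47* call in QX1211 was lost without CTR replicate 1, PAR1 replicate 1 or PAR1 replicate 3 (adjusted p = 0.159, 0.155 and 0.122).

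*ugt-28* fell in JU1088 (log2 -0.67 ± 0.18), QX1211 (-0.96 ± 0.18) and CB4856 (-1.83 ± 0.42, on 1.89, 2.22 and 0.86 normalized counts under PAR1, against 6.96, 4.68 and 6.96 in CTR worms). *ugt-66* fell in QX1211, with 19.4, 20.5 and 18.6 under PAR1, against 65.8, 72.0 and 72.7 in CTR worms (log2 -1.86 ± 0.38, adjusted p = 0.0023), and in CB4856 (-1.61 ± 0.45). *ugt-13* fell in JU1088 and QX1211 (log2 -0.98 ± 0.31 and -0.97 ± 0.29), with 202, 169 and 216 under PAR1 in QX1211, against 382, 335 and 418 in CTR worms. *ugt-53* fell in JU1088, with 25.8, 21.8 and 19.2 under PAR1, against 96.9, 64.6 and 78.1 (log2 -1.81 ± 0.52). Treated and CTR libraries of these 4 genes stood apart in each comparison with values given. Single libraries ended several of these calls: PAR1 replicate 2 of JU1088 for *ugt-28*, *ugt-13* and *ugt-53* (adjusted p = 0.141, 0.187 and 0.116), CTR replicate 1 of JU1088 for *ugt-13* (0.121), CTR replicate 2 of JU1088 for *ugt-28* (log2 -0.57, under the fold minimum), 5 of the 6 CB4856 libraries for *ugt-28* (up to 0.233), 3 of them for *ugt-66* (up to 0.206), and 4 of the 6 QX1211 libraries for *ugt-13* (up to 0.141).

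**Figure D4:**
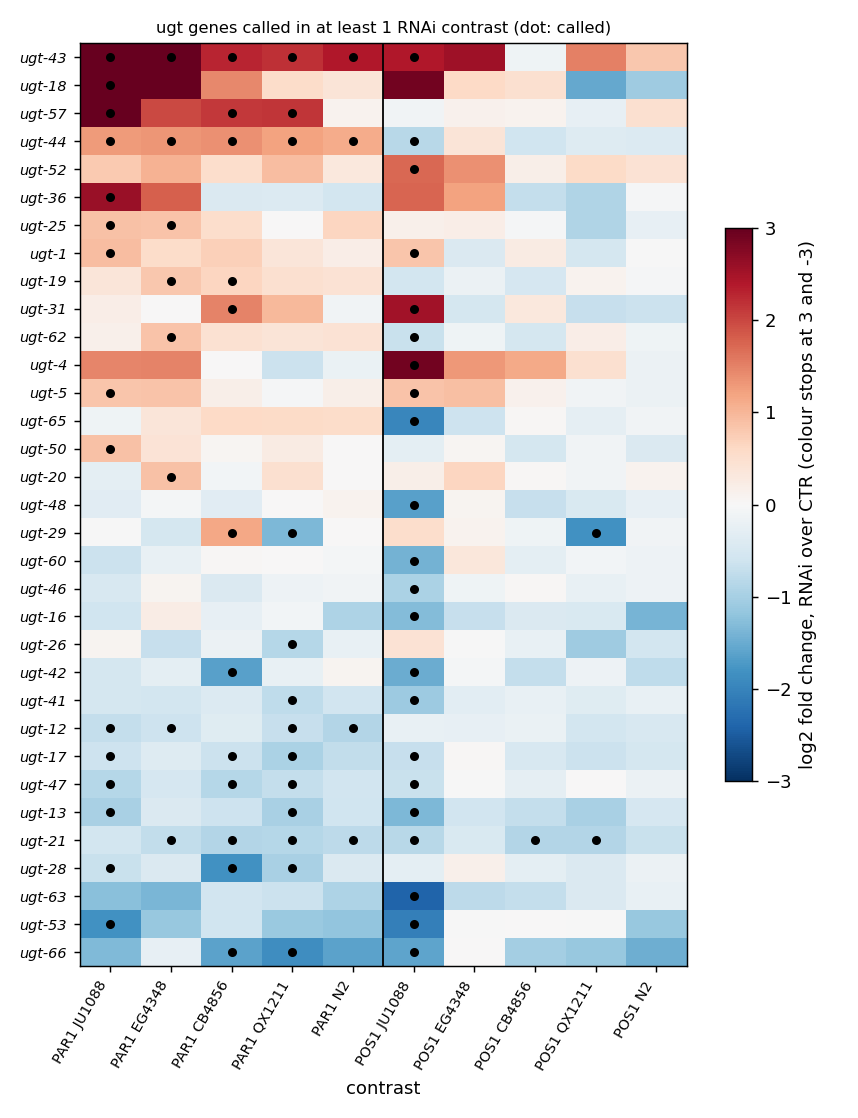
Log2 fold change of treated over CTR worms for the *ugt* genes called in at least 1 of the 10 RNAi comparisons (33 of 66), as a colour map with calls marked, PAR1 columns before POS1 columns. *ugt-43* and *ugt-44* are higher in all 5 PAR1 columns, *ugt-21* is below 0 in all 10 columns, and calls in the POS1 columns lie mostly in JU1088.

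Markers of several tissues moved with PAR1 as well, larval cuticle among them. The summed normalized count of the 7 listed genes (all found) was 2357 to 3045 under PAR1 in QX1211, against 396.5 to 565.7 in CTR worms, with no gene at 0. It was 703.8 to 1483 in CB4856, against 169.5 to 419.6, 396.9 to 1219 in JU1088, against 163.5 to 236.6, and 149.1 to 886.8 in EG4348 (1 gene at 0), against 63.66 to 109.7 (2 at 0). In N2 the ranges overlapped (175.5 to 277.4 under PAR1, against 174.3 to 849). The 9 germline and oocyte markers (all found, none at 0) summed lower under PAR1, without overlap, in JU1088 (60230 to 78810, against 86910 to 88590), EG4348 (80650 to 84700, against 91200 to 94760), CB4856 (73260 to 75310, against 85130 to 86990) and QX1211 (58160 to 65230, against 68270 to 75520). The 6 yolk protein genes, which are expressed in the adult intestine, summed higher in JU1088 (883400 to 972000, against 735100 to 775700), EG4348 (961900 to 1114000, against 842300 to 886700) and N2 (899300 to 952500, against 680500 to 826200). The 4 epidermis markers summed lower in JU1088 (14890 to 20960, against 23140 to 25810) and EG4348 (15140 to 16910, against 17720 to 21370). Early embryo markers, 8 of 9 found, summed higher in JU1088 (91.48 to 157.5, against 77.28 to 84.56) (2 genes at 0 in both groups) and EG4348 (87.17 to 134.3, against 34.9 to 54.11, 1 gene at 0 under PAR1), sperm markers in EG4348 (17.29 to 48.3, against 5.478 to 10.62, 1 gene at 0 in both groups), and markers of excretory cell and neurons in CB4856 (1629 to 1762, against 1454 to 1476) and QX1211 (1912 to 1945, against 1695 to 1818). Intestine sums overlapped in every strain. The part of these markers in the changes under PAR1 was not tested.

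Under POS1 the calls were concentrated in JU1088. There 6 members were higher and 16 lower, against 5.3% and 2.94% of all genes tested. In CB4856, 0 were higher and 1 lower (0.0592% and 0.0969% of all genes), and the single call was lost without CTR replicate 1, POS1 replicate 2, CTR replicate 3 or POS1 replicate 3. In QX1211, 0 were higher and 2 lower (0% and 0.0807%), *ugt-21* and *ugt-29*, with 0 calls without CTR replicate 1 or POS1 replicate 1 and 1 without POS1 replicate 2, CTR replicate 3 or POS1 replicate 3. The QX1211 members had a median log2 fold change of -0.34, against 0 for all genes. At a logCPM of 1 or more, the QX1211 median was -0.265 over 49 members, against -0.0006 over 10694 genes. The member medians were -0.16 in JU1088, -0.162 in CB4856, -0.172 in N2 and 0.0135 in EG4348. All genes had 0.0184, 0.0098, -0.002 and 0.0181. A lower family median was thus not confined to JU1088. Every POS1 library lay below every CTR library for 21 members in QX1211 and 20 in JU1088. The other strains had 8 in EG4348, 8 in CB4856 and 6 in N2. Members wholly above CTR numbered 2, 7, 8, 1 and 0 in the same order.

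EG4348 had 0 calls under POS1 by edgeR's quasi-likelihood test (0.0215% of all genes higher and 0.0431% lower) and 0 by DESeq2. There 9 of 66 members had an unadjusted edgeR p under 0.05, against 5.82% of all genes. N2 also had 0 calls by edgeR (0.0969% higher and 0.118% lower) and 0 by DESeq2. In N2, 9 of 66 members had an unadjusted edgeR p under 0.05, against 3.9% of all genes. The same count was 27 in JU1088, 18 in QX1211 and 12 in CB4856, against 19.7%, 4.73% and 4.45% of all genes. N2 had 2 calls without CTR replicate 1 and 1 without POS1 replicate 2. Whether the response to POS1 differs between JU1088 and the other strains was not tested by itself, since the interaction test given below covers both treatments and all strains at once.

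In JU1088 under POS1 the largest rise was in *ugt-4*, with 33.2, 192 and 218 normalized counts, against 26.9, 21.1 and 15.4 in CTR worms (log2 2.88 ± 0.62, adjusted p = 0.0047). *ugt-31* had 13.5, 17.0 and 26.6, against 3.88, 4.37 and 2.16 (log2 2.51 ± 0.57, adjusted p = 0.0063). *ugt-52* had 10.4, 40.1 and 23.4, against 7.93, 10.1 and 5.68 (log2 1.73 ± 0.46, adjusted p = 0.02). All POS1 libraries lay above all CTR libraries in these 3 genes, but in *ugt-4* and *ugt-52* replicate 1 lay only just above. The *ugt-52* call was lost without POS1 replicate 2 (adjusted p = 0.32) or CTR replicate 3 (0.125).

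The 16 members that fell included highly expressed ones. *ugt-63* (V:5108180-5110772, minus strand) had 229, 12.0 and 29.6 under POS1, against 375, 460.3 and 476 in CTR worms (log2 -2.41 ± 0.65, adjusted p = 0.02), and the call was lost without POS1 replicate 2 (adjusted p = 0.21) or replicate 3 (0.102). *ugt-13* had 175, 56.0 and 53.0, against 277, 210.1 and 223 (log2 -1.36 ± 0.31, adjusted p = 0.0062). *ugt-53* had 40.6, 10.4 and 11.0, against 96.9, 64.6 and 78.1 (log2 -2.04 ± 0.51). The groups did not overlap for these genes, and replicate 1 was the highest of the 3 POS1 libraries in each. *ugt-41* had 159, 59.6 and 103, against 247, 225 and 202 (log2 -1.08 ± 0.25, adjusted p = 0.0074), again with no overlap. The calls of *ugt-13*, *ugt-53* and *ugt-41* were lost without POS1 replicate 2 (adjusted p = 0.123, 0.161 and 0.15). The remaining lower calls were *ugt-16*, *ugt-17*, *ugt-21*, *ugt-42*, *ugt-44*, *ugt-46*, *ugt-47*, *ugt-48*, *ugt-60*, *ugt-62*, *ugt-65* and *ugt-66*. Each of these other than *ugt-21* was lost as a call without at least 1 of the 6 libraries.

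These calls rest in part on single libraries. The 22 calls became 5 without POS1 replicate 2, 10 without CTR replicate 3 and 11 without POS1 replicate 3, and were 26 without POS1 replicate 1. Leaving out JU1088 POS1 replicate 2, N2 CTR replicate 1 and CB4856 POS1 replicate 2 together gave 13 calls, 2 higher and 11 lower. *ugt-63* was low in all of these, at 12.1 in N2 CTR replicate 1, against 323 and 328 in its group, and at 157 in CB4856 POS1 replicate 2, against 550.4 and 684.

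Other tissue markers moved with these libraries. The 4 epidermis markers (all found, none at 0) summed to 19380, 10550 and 13340 normalized counts in the POS1 libraries of JU1088, against 23140 to 25810 in CTR worms, and the 5 of 6 intestine markers found summed to 3235 to 5659, against 5846 to 6503. The 9 germline and oocyte markers summed to 65610 to 84930 in JU1088, against 86910 to 88590, and the 5 markers of excretory cell and neurons to 900.1 to 1551, against 1643 to 1811. Intestine sums were also lower without overlap under POS1 in EG4348, CB4856 and QX1211 (4753 to 5002 in QX1211, against 5261 to 6029). Larval cuticle markers in JU1088, of which 1 was at 0 under POS1, summed to 395.1 to 682.5, against 163.5 to 236.6 in CTR worms. In N2 CTR replicate 1 the epidermis sum was 12980, against 27730 and 23110 in the other libraries. The nuclear receptor gene *nhr-114* had 118, 28.6 and 36.5 in JU1088 POS1 libraries, with a log2 fold change of -2.28. Their part in the lower calls was not tested.

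**Figure D5:**
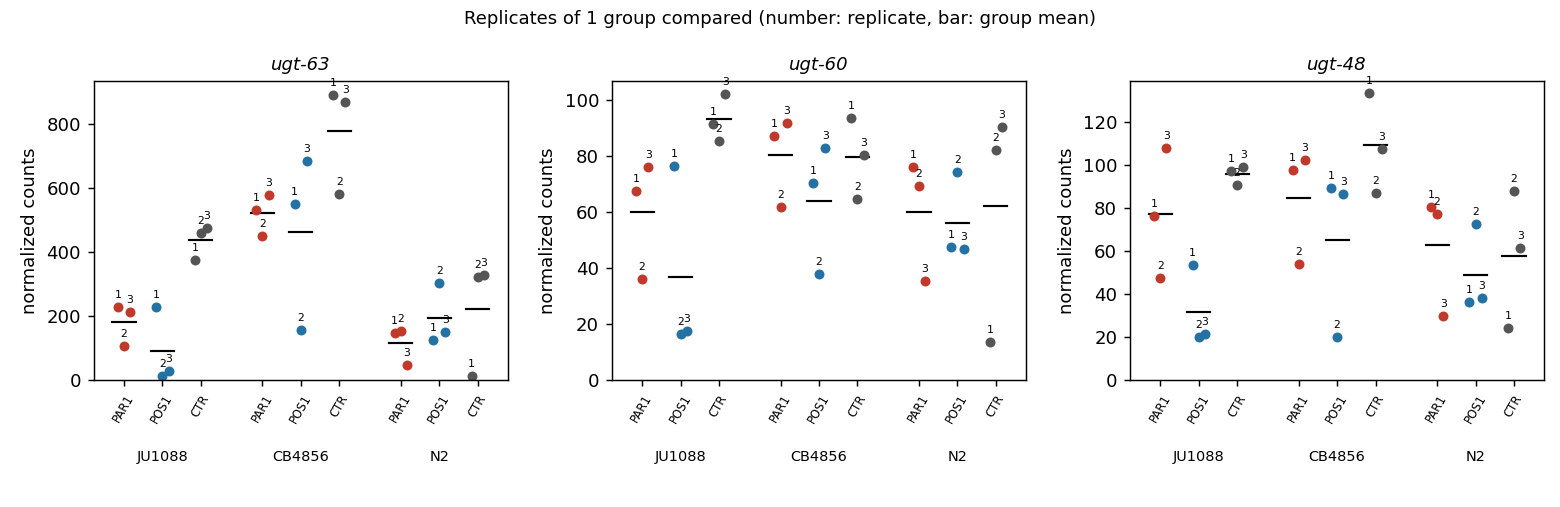
Normalized counts of *ugt-63*, *ugt-60* and *ugt-48* in each library of JU1088, CB4856 and N2 by condition (PAR1, POS1, CTR), with the replicate number at each point and bars at group means. Replicate 2 and replicate 3 of JU1088 POS1 (12.0 and 29.6 for *ugt-63*), replicate 2 of CB4856 POS1 (157) and replicate 1 of N2 CTR (12.1) lie low in all 3 genes.

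Whether a member responded differently among strains was tested with 8 interaction coefficients at once. The interaction passed an adjusted p of 0.1 for 2 of 66 members, *ugt-29* and *ugt-31*, against 1.29% of all genes, with 3 calls by DESeq2. An unadjusted edgeR p under 0.05 was seen for 11 members, against 11.7% of all genes. Without JU1088 POS1 replicate 1 there were 5 interaction calls by edgeR. *ugt-29* (adjusted p = 0.0023) rose under PAR1 in CB4856, with 23.8, 54.2 and 42.1, against 9.47, 24.5 and 18.4 in CTR worms (log2 1.16 ± 0.28), although the lowest PAR1 library lay within the CTR range. In QX1211 it fell under both treatments, with 9.11, 12.8 and 11.4 under PAR1 (log2 -1.36 ± 0.32) and 4.69, 9.82 and 11.8 under POS1 (log2 -1.82 ± 0.35), against 32.3, 22.3 and 27.9 in CTR worms. No treated QX1211 library overlapped the CTR libraries. In N2 the PAR1 value was 0.01 ± 0.24. The interaction call of *ugt-29* held without any one of the 45 libraries, but its rise in CB4856 was lost without CTR replicate 1 or PAR1 replicate 2 (adjusted p = 0.136 and 0.122), and its fall under POS1 in QX1211 without CTR replicate 1 or POS1 replicate 1 (0.358 and 0.484).

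For *ugt-31* (adjusted p = 0.017) the 2 called responses were the rise under POS1 in JU1088 given above and a rise under PAR1 in CB4856, with 12.9, 9.93 and 16.4, against 7.61, 3.02 and 3.94 (log2 1.48 ± 0.50, adjusted p = 0.093). Groups did not overlap in either, but the CB4856 call was lost on leaving out any one of the 6 libraries. Both strains had low CTR levels of the gene. In EG4348 and N2, where it was abundant, POS1 gave -0.53 ± 0.31 and -0.64 ± 0.32, and neither was called. The next smallest interaction p-values, in *ugt-51* and *ugt-22*, did not pass (adjusted p = 0.21 and 0.29).

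Over the whole family, 33 of 66 members were called in at least 1 RNAi comparison and 33 in none, against 17.7% of all genes tested that were called in at least 1. In 3 or more comparisons 11 were called, against 3.1% of all genes, and 3 were called higher in one comparison and lower in another. In 18 members neither an RNAi call nor the overall strain test was passed. These included 1 gene, *ugt-10*, that was called higher in QX1211 than in N2, on 10 against 1 estimated reads (ratio 12.8, 95% counting interval 1.82 to 556), a call lost without N2 CTR replicate 1 or 2 (adjusted p = 0.144 and 0.175) and with a replicate block (0.115).

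Other genes of small-molecule metabolism were counted in the same tests. Cytochrome P450 enzymes carry out phase I oxidation. Of 74 tested genes for these (with their reductase *emb-8*), 16 were higher and 0 lower under PAR1 in JU1088 (7.86% and 0.64% of all genes). Under POS1 in JU1088, 22 were higher and 4 lower (5.3% and 2.94% of all genes). The median log2 fold changes were 0.615 and 0.738. The *ugt* genes had medians of 0.07 and -0.14 in these comparisons, and all genes 0.03 and 0.03. At a logCPM of 1 or more, the *ugt* medians were -0.05 and -0.16, and those of all genes -0.01 and 0.02. In the other 4 strains 1 to 4 P450 genes were higher under PAR1 and 0 lower. These were 1.35% to 5.41% of the P450 genes, against 0.856% to 4.54% of all genes called higher. In QX1211 the P450 share (2.7%) was below that of all genes (4.54%). Of 49 glutathione S-transferase and sulfotransferase genes, 6 were higher and 1 lower under PAR1 in JU1088 (7.86% and 0.64% of all genes). Under POS1 in JU1088, 5 of these were higher and 6 lower (5.3% and 2.94% of all genes). Of 22 *pgp* and *mrp* efflux transporter genes, 2 to 3 were higher under PAR1 in each strain and 0 lower. These were 9.09% to 13.6% of the transporter genes, against 0.856% to 7.86% of all genes called higher.

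Strain differences in CTR worms passed the test for 31 of 70 P450 genes, 19 of 46 transferase genes and 16 of 21 transporter genes (44.3%, 41.3% and 76.2%), against 35.1% of all genes tested. Of 4 tested genes for donor sugars, *sqv-4*, the UDP-glucose dehydrogenase that makes UDP-glucuronic acid, was higher in EG4348 (log2 0.26) and CB4856 (0.27) than in N2. Another, *D1005.2*, was called higher under PAR1 in JU1088 (log2 0.98) and CB4856 (0.95), narrowly (edgeR, adjusted p = 0.073 and 0.075). Both *sqv-4* and *D1005.2* passed the overall strain test (edgeR, adjusted p = 0.0011 and 0.06). Among 17 regulators, *pha-4*, which encodes the FoxA factor of the foregut, rose under PAR1 in JU1088 (log2 2.25), CB4856 (1.202) and QX1211 (1.19). Regulators called higher in these strains numbered 1, 2 and 1 (5.88%, 11.8% and 5.88%), against 7.86%, 3.93% and 4.54% of all genes. *elt-2*, which encodes an intestinal GATA factor, rose under PAR1 in CB4856 (log2 0.59), and *skn-1*, the xenobiotic response regulator, was not called in any RNAi comparison. In CTR worms 6 of the 17 regulators passed the strain test (35.3%, against 35.1% of all genes). These included *skn-1* (edgeR, adjusted p = 0.0063), called higher than N2 in EG4348 (log2 0.21) and lower in QX1211 (-0.18).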

How the data were processed

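RNA from whole worms was sequenced with a directional kit. The authors used Trimmomatic for trimming and Salmon for quantification, with a transcriptome of its own for each strain, made from the WormBase reference with known variants inserted. The deposited files give, per transcript, an estimated count and a TPM value (a share of transcripts corrected for length) with effective lengths, and 1 table of signal per gene, counts normalized by the authors with DESeq2 size factors and tximport length correction, used here for the per-library values. Rebuilt from the estimated counts, this table matched the deposited values within 1% for 100% of 2787 *ugt* values above 0.

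Estimated counts were summed per gene, rounded and tested with edgeR 4.0.16 (R 4.3.3): TMM scaling, average transcript length offsets, trended dispersion, quasi-likelihood test and Benjamini-Hochberg adjustment over all genes with at least 10 reads over the libraries of the model. One model held all 45 libraries with 15 group means for the RNAi comparisons (18581 genes, with a fold change over 1.5 and an adjusted p under 0.1 for a call) and the strain by treatment interaction. A second held the 15 CTR libraries for strain (16490 genes, adjusted p under 0.1). Fold changes are log2, not shrunken, with standard errors derived from the F statistic. Coordinates come from the Ensembl annotation of WBcel235.

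Genes described singly were *ugt-43*, the 5 members with the highest mean TPM in CTR libraries, the 10 with the smallest strain p, the 4 with the smallest interaction p, at most 4 called members per RNAi comparison, and members called in 3 or more of these (26 in all). Others are named where a list of calls is given in full, as neighbours, or after their values were seen. The members and lists were chosen with earlier results of these data known. Alternatives were DESeq2 1.42.0, other size factors, filters and models, a replicate block and leaving out libraries. On simulated counts, the test recovered 74% of 100 genes changed 2-fold and 98% of 100 changed 4-fold for PAR1 in JU1088 (18367 genes), and 85% and 99% for QX1211 against N2 (16441 genes). Of the calls, 3.91% and 9.8% were false. Only genes above a minimum mean read count were changed, so recovery was not measured for members with few reads. Counts were drawn from the fitted dispersion trend, without outlying libraries or length differences, which real libraries do have. Depth limits precision for members with few reads, and counting intervals cover counting error only.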

Additional observations from a re-analysis of the deposited data

Results flagged for a closer look

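The test of the strain by treatment interaction singled out 2 members whose effects differed between strains. *ugt-29* had an adjusted p of 0.0023, with log2 fold changes under PAR1 of 1.16 in CB4856 and -1.36 in QX1211. *ugt-31* had an adjusted p of 0.017, with log2 fold changes under POS1 of 2.51 in JU1088 and -0.64 in N2. The N2 change was not called, and its POS1 libraries (75.4, 39.0 and 71.8) overlapped those of CTR (164, 81.3 and 47.2). Both interactions were called under all 53 alternatives run for this test, 1 of them DESeq2 and the others edgeR's quasi-likelihood test. The part of CTR level in these differences was not tested, although both genes had low CTR levels in CB4856 and QX1211.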

How the results depend on the processing

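No called value of a *ugt* gene changed direction under any alternative. Among uncalled values of *ugt-43*, the sign changed for CB4856 against N2 (log2 from -0.30 to 0.48) and under POS1 in CB4856 (from -0.40 to 0.08). Of 170 calls of single genes, 156 of the 168 with an adjusted p stayed with DESeq2, all but 2 with RLE size factors, 166 without the transcript length offset, 161 with no filter on low counts and all 155 that could be tested with edgeR's filterByExpr. With each strain fitted alone 47 of 77 stayed, and the counts of calls were 9 under PAR1 in JU1088, 13 in EG4348 and 0 in N2, and 8 under POS1 in JU1088 and 1 in EG4348. Leaving out the 3 libraries quantified with one common fragment length setting (QX1211 CTR replicate 1, CB4856 PAR1 replicate 3 and JU1088 POS1 replicate 2) kept 133 of 169, and the counts under POS1 were 5 in JU1088 and 0 in QX1211. Without the farthest library of each of the 3 groups that spread most (JU1088 POS1 replicate 2, N2 CTR replicate 1 and CB4856 POS1 replicate 2), an alternative chosen after seeing the data, 152 of 170 stayed, and the counts were 10 under PAR1 in N2 and, under POS1, 13 in JU1088, 0 in CB4856 and 3 in N2. The cause was not tested.

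Leaving out 1 library at a time gave 6 to 15 calls under PAR1 in JU1088 (15 with all libraries), 2 to 7 in EG4348 (8), 4 to 9 in CB4856 (12), 9 to 13 in QX1211 (13) and 2 to 7 in N2 (4). Under POS1 it gave 5 to 26 in JU1088 (22), 0 to 0 in EG4348 (0), 0 to 1 in CB4856 (1), 0 to 2 in QX1211 (2) and 0 to 2 in N2 (0). For the interaction the range was 2 to 5 (2), for strain 32 to 45 (38), and against N2 3 to 7 in JU1088 (6), 3 to 12 in EG4348 (9), 13 to 19 in CB4856 (18) and 17 to 21 in QX1211 (20). These fits kept the dispersion trend of all 45 libraries, other than in CTR worms.

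Same-numbered libraries did not pair throughout: of 30 pairs, 13 had a correlation over 0.1 (from -0.31 to 0.536, median 0.0528, 8181 genes). Pairs of POS1 with CTR had 0.42, 0.37 and 0.20 in CB4856, and 0.54, 0.37 and -0.05 in N2. Libraries of unlike number were not compared, so pairing in these groups is not excluded. With a replicate block the counts were 15, 7, 10, 12 and 4 under PAR1 and 22, 0, 1, 2 and 0 under POS1 (JU1088, EG4348, CB4856, QX1211 and N2), 2 for the interaction, 36 for strain, and 6, 8, 16 and 20 against N2 (JU1088, EG4348, CB4856 and QX1211). Of the 170 calls 157 stayed. Depth limits the 17 members under 1 TPM most.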
